A study of Mus musculus with 12 samples.

Results

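The third complementarity-determining region of the T cell receptor β chain (CDR3β) is the loop that most often lies over the peptide when the receptor binds a peptide and an MHC molecule. It is built when a V, a D and a J segment of the Trb locus are joined in a developing thymocyte: bases are trimmed from the segment ends and non-templated (N) bases are added at both junctions. Its length therefore depends on the segments used, on the trimming and on the N bases, and CDR3β loops at the long end of the distribution are rare. The clonotypes described here are the TRBC rows (β chain rows) whose listed CDR3, conserved C and F included in the count and without an undetermined residue, had 17 or more residues. They numbered 24590 of 968040 TRBC clonotypes, or 2.54%, with 43675 of 1790841 TRBC UMIs (unique molecular identifiers, each of which marks a cDNA molecule). They held 24370 distinct clonotypes, that is, combinations of V, J and CDR3 nucleotide sequence, and 22747 distinct CDR3 amino acid sequences. Length alone chose them, and no count, treatment or tissue entered the choice. A first C and a last F were not required, and 24547 began with C and 24549 ended with F.

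The libraries came from CD8+ T cells of wild-type mice that bore a tumor, isolated from the tumor, the spleen or the tumor-draining lymph node (tdLN). The tumor model is given as HNSCC/Q1-2, a head and neck squamous cell carcinoma line, which the study grew in C57BL/6 mice, and the methods give an age of 6 to 8 weeks for the mice bought. The 4 treatments were control IgG, IL-10-Fc (interleukin-10 fused to an antibody Fc part), αCSF1R (an antibody that blocks the receptor of the macrophage growth factor CSF-1) and BF10 (a protein of αCSF1R fused to human IL-10). Each was given 3 times, 3 days apart, at an equivalent dose of 30 mg/kg by the labels, and the amounts per agent are not given there. Each of the 12 libraries, 1 for each treatment and tissue, was made from 100 ng of RNA mixed within a treatment (N = 3, taken here as mice), so no treatment has a replicate and no treatment was tested. TRBC UMIs ranged from 32775 in the αCSF1R tumor to 210520 in the αCSF1R tdLN, and the αCSF1R tumor held only 60 long clonotypes, against 289 to 3469 in the other libraries. The assay reads T cell receptor chains only, so CD8 transcripts were not measured. Titles of the tumor and spleen libraries name CD8, and those of the tdLN libraries do not. The paper states CD8+ cells for all 3 tissues. γ and δ chains took 4.96% to 6.34% of all UMIs in tdLNs, 0.677% to 2.30% in spleens and 0.873% to 8.93% in tumors. The highest share was that of the αCSF1R tumor. Whether the 3 tissues of a treatment came from the same mice is not stated. The names of their read sets carry the same sample number, so treatment and sample number cannot be told apart, the 12 libraries may not be independent, and p-values over the 12 libraries measure the spread between these libraries only.

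To show what a long CDR3β looks like, the germline D segments and the long clonotypes with the most UMIs in 6 libraries are printed here, 5′ to 3′ from the conserved cysteine codon to the phenylalanine codon. Lower case marks bases that match the germline V segment from the start or the germline J segment from the end (GRCm38, GENCODE annotation), and capitals mark the middle, which holds D and N bases. Trbd1 (chromosome 6, 41533201 to 41533212) has 12 bases and Trbd2 (chromosome 6, 41542163 to 41542176) has 14, and both are rich in G.
Trbd1, germline: GGGACAGGGGGC
Trbd2, germline: GGGACTGGGGGGGC
Control IgG tumor, Trbv23 and Trbj2-2: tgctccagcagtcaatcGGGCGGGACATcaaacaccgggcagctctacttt
IL-10-Fc tumor, Trbv29 and Trbj2-5: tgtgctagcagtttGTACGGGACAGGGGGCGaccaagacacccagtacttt
αCSF1R tumor, Trbv26 and Trbj1-6: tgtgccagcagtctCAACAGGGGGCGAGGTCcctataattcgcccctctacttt
αCSF1R spleen, Trbv1 and Trbj2-1: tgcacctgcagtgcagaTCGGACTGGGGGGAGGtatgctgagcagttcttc
BF10 spleen, Trbv16 and Trbj2-3: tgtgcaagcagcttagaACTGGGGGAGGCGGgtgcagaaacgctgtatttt
BF10 tdLN, Trbv13-2 and Trbj2-1: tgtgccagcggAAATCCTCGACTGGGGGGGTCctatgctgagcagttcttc

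Most of the long CDR3s lay just above the limit. The median TRBC CDR3 had 14 residues, and 83844 clonotypes had 16 residues, the last length left out. Of those taken, 19999 had 17, 3578 had 18, 607 had 19 and 115 had 20 residues, and 25 clonotypes had 21 to 25. A further 266 clonotypes were listed with 26 or more residues, in 2 classes. Of these, 92 had 26 to 71 residues, and 46 of them held a repeated stretch of 24 or more bases. The other 174 had 106 to 120 residues, and each held 280 to 327 consecutive bases of a germline Trbv transcript, far more than the 14 to 17 bases that the 23 Trbv genes tested below give to a CDR3. In 156 of these 174 the V assignment was Trbv2 or Trbv18 while the matched germline gene was Trbv17, and in 0 of the 174 was the matched gene among those named by the assignment. The longest, with 120 residues, was listed with 1 UMI in the αCSF1R tdLN. These 266 rows meet the length rule but are not CDR3s of the usual extent. They held 416 UMIs, and 184 of them had 1 UMI. Below, 10 results have a single p-value. All of these kept their side of the threshold with only the 24250 long CDR3s of 17 to 25 residues from C to F. In that set 10 Trbj segments and 19 Trbv genes passed, as with all rows, and 14 residues against 13. The calls of single residues changed, as given with them.

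**Figure D1:**
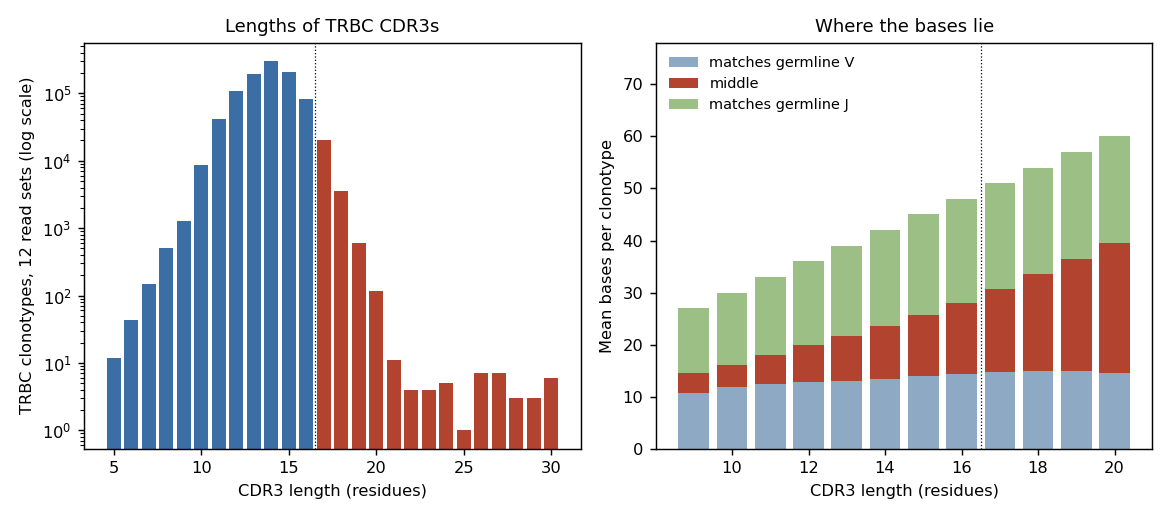
Left, number of TRBC clonotypes (log scale) at each CDR3 length in residues over the 12 libraries, up to 30 residues, with the long CDR3s in red. Right, mean bases per clonotype that match germline V, lie in the middle, or match germline J, at lengths of 9 to 20 residues. The middle grew from 13.7 bases at 16 residues to 24.9 at 20, while the V and J parts changed little.

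Where the extra bases lay can be read from the 24318 long clonotypes of up to 25 residues with 1 V gene and 1 J segment of known germline sequence. Long CDR3s had a mean of 51.6 bases, and shorter ones had 41.3. The middle held 16.6 bases in long and 9.88 in shorter CDR3s, a difference of 6.69 bases, or 64.8% of the extra length. The J part held 2.33 bases more, of which 0.688 came from the use of longer J segments and the rest from less trimming. The V part held 1.30 bases more. The extra length of the middle was 6.23 to 7.05 bases in the 12 libraries, the smallest in the αCSF1R tumor. These values follow from a choice by length and are given as a description. A base can match germline by chance, so the split between V, middle and J has an error of its own.

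The middle of long CDR3s more often held bases of Trbd2 in clonotypes with a Trbj2 segment, and of Trbd1 in clonotypes with a Trbj1 segment. The 5 letters GACAG stand in Trbd1 and not in Trbd2, and GACTG stands in Trbd2 and not in Trbd1. On the coding strand of the middle, GACTG was present in 52.6% of long and 18.7% of shorter Trbj2 clonotypes, while GACAG was present in 12.7% and 16.6%. In Trbj1 clonotypes, GACAG was present in 56.9% of long and 28.6% of shorter CDR3s, and GACTG in 0.216% and 0.175%. Trbd2 lies downstream of the Trbj1 cluster, so a deletional join cannot bring it to a Trbj1 segment. A longer middle has more places for either motif, and the motifs were searched as letters only.

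Some long CDR3s held both D motifs, in the order of the genome. Among long Trbj2 clonotypes, 83 of 19215 (0.432%) had GACAG followed by GACTG without overlap, and 8 had the reverse order. Among the 644801 shorter Trbj2 clonotypes the numbers were 54 and 47, that is, nearly equal. Long Trbj1 clonotypes had 1 and 2. Over both clusters, the 84 long clonotypes with Trbd1 bases first were listed in 11 of 12 libraries, with 1 to 11 in each, and the reverse order was found 0 to 2 times in any library. The αCSF1R tumor had 0 of 59 in either order, which allows a share of up to 5.08% (3 of 59). In 50 of the 84, the middle held a run of 8 or more bases of each D segment. The 2 runs were searched separately and can share G bases. Such runs were not counted for the reverse order or for shorter clonotypes, so this number has no comparison. Long CDR3s have longer middles, and at an equal middle of 14 to 20 bases the share with Trbd1 first was 0.0327% to 0.380% of long and 0.0078% to 0.139% of shorter clonotypes, with the long share the lower at 18 bases (0.0392% against 0.139%). At the rarer middles of 21 to 26 bases it was 0.554% to 10.3% of long and 0.0785% to 0.331% of shorter clonotypes. At an equal middle a shorter CDR3 has fewer bases outside it, and V or J bases beyond a mismatch with germline count as middle. Equal middles therefore need not leave equal room for D bases, so this comparison does not settle the part of middle length. Joining of both D segments in 1 chain (D-D fusion) is known of the Trd locus and is rare at Trb. No test was made of the order. The 4 long clonotypes in which the shorter of the 2 runs was longest are shown, with the middle in capitals.
IL-10-Fc tdLN, Trbv15 and Trbj2-7: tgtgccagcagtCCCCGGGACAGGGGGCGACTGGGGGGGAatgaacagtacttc
BF10 tumor, Trbv12-2 and Trbj2-1: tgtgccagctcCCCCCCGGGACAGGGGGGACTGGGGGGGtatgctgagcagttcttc
IL-10-Fc tdLN, Trbv16 and Trbj2-7: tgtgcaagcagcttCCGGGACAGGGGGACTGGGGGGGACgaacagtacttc
BF10 tdLN, Trbv3 and Trbj2-7: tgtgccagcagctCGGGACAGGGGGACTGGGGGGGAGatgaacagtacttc
The first held all 12 bases of Trbd1 and then 11 of Trbd2, and had 2 UMIs. None of the 4 had more than 2 UMIs, and in all but the first the 2 runs share G bases.

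Long CDR3s made up a smaller share of clonotypes in tdLNs than in spleens and tumors. In tdLNs the share was 2.29% under control IgG (2.18% to 2.40%, exact 95% intervals), 2.45% under IL-10-Fc (2.35% to 2.54%), 2.26% under αCSF1R (2.18% to 2.33%) and 2.30% under BF10 (2.22% to 2.37%). In spleens it was 2.63% under control IgG (2.52% to 2.74%), 2.83% under IL-10-Fc (2.73% to 2.93%), 2.84% under αCSF1R (2.72% to 2.97%) and 2.69% under BF10 (2.58% to 2.80%). In tumors it was 3.06% under control IgG (2.72% to 3.43%), 2.77% under IL-10-Fc (2.63% to 2.91%), 2.42% under αCSF1R (1.85% to 3.10%) and 2.79% under BF10 (2.68% to 2.90%). Every tdLN was below the spleen and below the tumor of the same treatment, and among all libraries only the IL-10-Fc tdLN reached above a spleen or tumor value, that of the αCSF1R tumor. The tissue means were 2.32% ± 0.0843 in tdLN, 2.75% ± 0.105 in spleen and 2.76% ± 0.266 in tumor (SD, n = 4), and the tissues differed in an exact permutation test of tissue within treatment (p = 0.0417). With 3 treatments the p was 0.0556 to 0.222, where the smallest possible is 0.0278. Intervals cover counting error only. Sample numbers start again in each tissue, so tissue cannot be told apart from a set of libraries handled together. In the αCSF1R and BF10 tdLNs only 21852 of 210520 and 16849 of 203978 TRBC UMIs had 7 or more reads. With such UMIs alone the means were 2.20% in tdLN, 2.61% in spleen and 2.67% in tumor (exact permutation test, p = 0.0278). Whether the share of γ and δ chains bears on the difference was not tested.

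The mean share of UMIs was also lowest in tdLNs and was highest in spleens. It was 2.10% to 2.28% in tdLNs (mean 2.19% ± 0.0837, SD, n = 4), 2.16% to 2.55% in tumors (2.43% ± 0.185) and 2.42% to 2.96% in spleens (2.67% ± 0.222), and the same exact permutation test gave p = 0.0139. With 16 or more residues taken as long, tumors were lowest at 9.60%, with 9.99% in tdLNs and 11.5% in spleens (exact permutation test, p = 0.130). In such bulk RNA, more UMIs of a clonotype can mean more cells or more RNA per cell, which cannot be told apart. Against the shares of clonotypes, long CDR3s held fewer UMIs than their number in 11 of 12 libraries, with a mean difference of −0.178 percentage points ± 0.170 (SD, n = 12, exact sign-flip permutation test, p = 0.00293). The exception was the αCSF1R spleen, at +0.117 percentage points, where 1 clonotype held 600 of the 4575 long UMIs. The difference was −0.0343 with 18 or more residues (p = 0.30) and −0.0865 among clonotypes of at least 2 UMIs (p = 0.157), which did not pass in the exact permutation test. Libraries differed in depth, and shorter clonotypes had 1.35 to 1.75 UMIs each in tdLNs, 1.66 to 2.40 in spleens and 1.95 to 13.2 in tumors. At an equal 32775 TRBC UMIs in every library the means of the share of clonotypes were 2.23%, 2.63% and 2.65% in tdLN, spleen and tumor (p = 0.0324, exact permutation test). With each library set to the same mean Trbj or Trbv use, the difference of tdLNs from the mean of the other tissues was −0.455 or −0.521 percentage points, against −0.432 as measured.

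**Figure D2:**
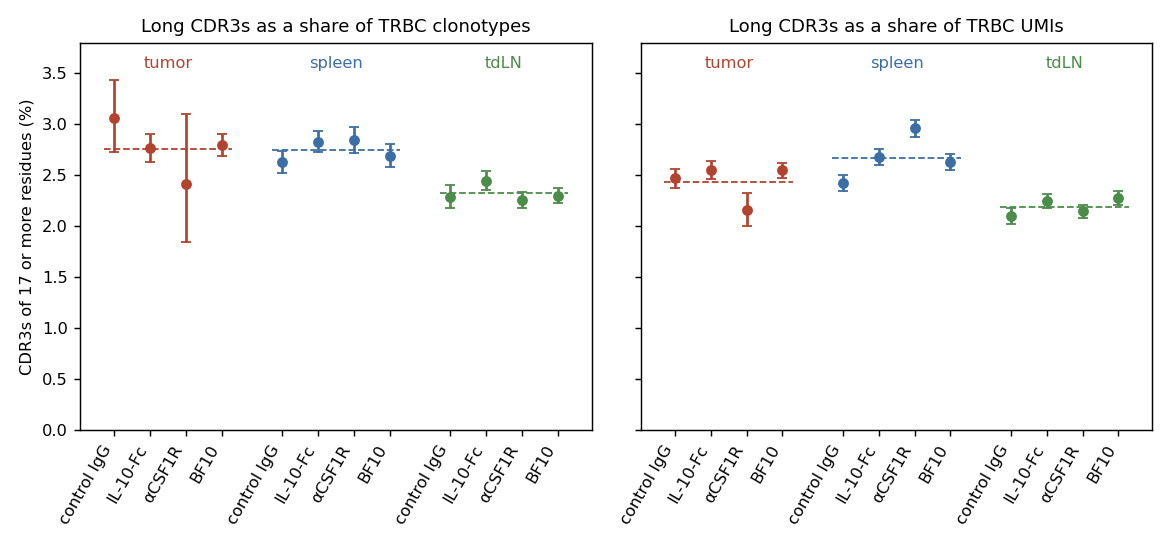
Percent of TRBC clonotypes (left) and of TRBC UMIs (right) with a CDR3 of 17 or more residues in each of the 12 libraries. Points are single libraries with exact 95% counting intervals, and dashed lines are means of the 4 libraries of a tissue. The 4 tdLN points lie between 2.26% and 2.45% of clonotypes, below the spleen points at 2.63% to 2.84%.

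Long clonotypes were more often seen with 1 UMI. In 11 of 12 libraries a larger share of long than of shorter clonotypes had 1 UMI, by 3.35 to 6.57 percentage points, as in the control IgG spleen (52.8% against 46.6%). In the αCSF1R tumor it was 21.7% of 60 long against 25.6% of shorter clonotypes. The mean difference was 3.73 percentage points ± 2.63 (SD, n = 12, exact sign-flip permutation test, p = 0.00293), and the tissues did not differ in it beyond their spread (p = 0.954, exact permutation test). Long clonotypes had 1.32 to 11.8 UMIs each on average, and shorter ones 1.35 to 13.2.

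A few long clonotypes were large. At 0.1% or more of the TRBC UMIs of a library stood 6 long entries of 185 entries of any length, 2 in the control IgG tumor, 2 in the αCSF1R tumor, 1 in the αCSF1R spleen and 1 in the BF10 tdLN, and 1 clonotype supplied both the spleen entry and a tumor entry. Tumors held 4 of the 6 long entries and 178 of the 185 of any length (96.2%). The Trbv23 and Trbj2-2 clonotype of the control IgG tumor had 823 UMIs, or 0.791% (exact 95% interval 0.738% to 0.847%), and was the clonotype with rank 15 there. It had 3 UMIs in the control IgG tdLN and was listed in no other library. The Trbv1 and Trbj2-1 clonotype ranked 1 of all TRBC clonotypes of the αCSF1R spleen with 600 UMIs, or 0.388% (0.358% to 0.420%). It had 120 UMIs in the αCSF1R tumor and 15 in the αCSF1R tdLN, all from mice of the same treatment. The Trbv26 and Trbj1-6 clonotype, of 18 residues, had 213 UMIs in the αCSF1R tumor, or 0.650%, and 3 in the αCSF1R tdLN. The Trbv13-2 and Trbj2-1 clonotype of the BF10 tdLN ranked 2 with 237 UMIs, of which 21 were supported by 7 or more reads, against 432 of 823 for the first. In that tdLN only 16849 of 203978 TRBC UMIs had that many reads.

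The largest long clonotypes of the other libraries were smaller. The IL-10-Fc tumor had a Trbv29 and Trbj2-5 clonotype with 109 UMIs, whose middle held all 12 bases of Trbd1 in 1 run, and which had 18 UMIs in the IL-10-Fc tdLN and 2 in the IL-10-Fc spleen. The BF10 spleen had a Trbv16 and Trbj2-3 clonotype of rank 3 with 76 UMIs, and the BF10 tdLN had 27 of it. The αCSF1R tdLN had a Trbv13-2 and Trbj2-4 clonotype with 54 UMIs. In the remaining 5 libraries the largest had 11 to 23 UMIs, namely 15 in the BF10 tumor, 11 in the control IgG and IL-10-Fc spleens, 18 in the control IgG tdLN and 23 in the IL-10-Fc tdLN. The 10 largest long clonotypes took 54.1% of long UMIs in the control IgG tumor and 68.9% in the αCSF1R tumor, and 1.61% to 15.2% in the other libraries. For BF10 and IL-10-Fc tumors these shares were 2.27% and 7.90%.

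The use of Trbj segments differed between long and shorter CDR3s. Of the 12 segments, 6 were used more and 4 less by long CDR3s (exact sign-flip permutation test over 12 libraries, Benjamini-Hochberg adjusted p under 0.05), that is, 83.3% of the segments tested, 50% higher and 33.3% lower. Trbj2-4 (chromosome 6, 41543362 to 41543410) rose most. It was used by 16% to 25.6% of long and 8.58% to 9.37% of shorter clonotypes, with no overlap, and the mean difference was 9.53 percentage points ± 2.56 (SD, n = 12, adjusted p = 0.000732 by the exact permutation test). Trbj2-3 rose by 7.70, Trbj2-2 by 5.86, Trbj2-1 by 3.49, Trbj1-6 by 2.01 and Trbj1-4 by 1.27 percentage points. The mean of Trbj2-1 rests in part on the αCSF1R tumor, where 33.3% of the 60 long clonotypes used it (a difference of 18 percentage points, against 0.272 to 4.25 in the other libraries), and without that library it was 2.17. Trbj1-4 was higher by 8.18 there and between −0.87 and 1.77 in the others, with 9 of 11 above 0 and a mean of 0.64 without it. Trbj2-7 (chromosome 6, 41543810 to 41543856), the most used segment of shorter CDR3s at 19.7% to 22.4%, fell to 1.67% to 7.09% of long ones, a mean difference of −16.4 percentage points ± 0.971 (SD, n = 12). The mean difference was −7.97 for Trbj1-1, −5.07 for Trbj1-2 and −0.88 percentage points for Trbj1-5. Trbj2-5 (+0.672) and Trbj1-3 (−0.237) did not pass, and without the αCSF1R tumor Trbj2-5 was at +1.02 and passed (adjusted p = 0.00586 by the exact permutation test).

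The germline length of a J segment is part of the CDR3 length that chose the clonotypes, so part of this pattern follows from the rule. Trbj2-7 gives 19 bases up to the F codon and Trbj1-1 and Trbj1-2 give 20, and these 3 had the fewest long clonotypes among their own, 0.620%, 0.425% and 0.474%. Trbj1-6, with 25 bases, had 4.50%. Among segments of equal length the shares still ranged widely. Trbj2-2 and Trbj1-4 both give 23 bases, and 5.38% and 2.72% of their clonotypes were long. Trbj2-1, Trbj1-3 and Trbj1-5 give 22 bases, with 3.02%, 2.59% and 1.72%. Trbj2-3, Trbj2-4 and Trbj2-5 give 21 bases, with 4.79%, 4.85% and 2.82%. The sets of 23 and of 22 bases hold segments of both clusters, which also differ in access to Trbd2. The set of 21 bases is all Trbj2.

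The segments of the Trbj2 cluster as a whole were used more by long CDR3s in 12 of 12 libraries. Their share was 75.0% to 82.0% of long and 64.8% to 70.7% of shorter clonotypes. The mean difference was 10.9 percentage points ± 1.5 (SD, n = 12, exact sign-flip permutation test, p = 0.000488, the smallest this test can give). It was 14.3 in the control IgG tumor and 8.63 in the αCSF1R tdLN, the highest and the lowest. Trbj2-7 is a Trbj2 segment and went the other way. The largest falls within Trbj1 were those of Trbj1-1 (−7.97) and Trbj1-2 (−5.07 percentage points), which give 20 germline bases each. Other Trbj1 segments changed less, in both directions. Germline J length is part of the length rule, so part of the cluster difference follows from it. Among segments of 22 or of 23 bases, that of Trbj2 had the largest share of long clonotypes. Use of the cluster apart from J length was not tested.

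**Figure D3:**
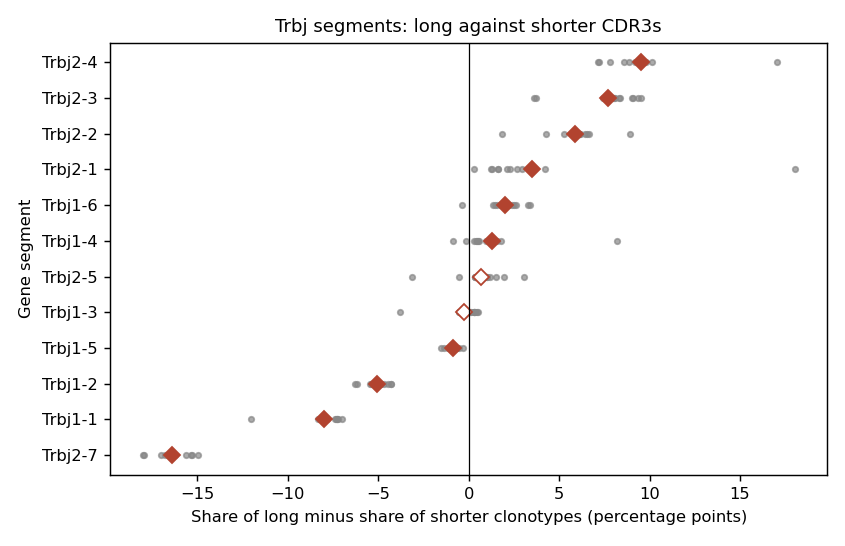
Share of long minus share of shorter clonotypes, in percentage points, for each of the 12 Trbj segments. Grey points are the 12 libraries and diamonds are their mean, filled where the adjusted p was under 0.05. Trbj2-4 lies highest at a mean of 9.53 and Trbj2-7 lowest at −16.4.

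The V genes split too. Of 23 Trbv genes tested, 8 were used more and 11 less by long CDR3s (82.6% of those tested, 34.8% higher and 47.8% lower, exact sign-flip permutation test, Benjamini-Hochberg adjusted). Trbv16 (chromosome 6, 41151740 to 41152230) had the largest rise, from 9.41% to 13.7% of shorter to 14.1% to 30.0% of long clonotypes, a mean of 8.01 percentage points ± 3.03 (SD, n = 12, adjusted p = 0.000802 by the exact permutation test). Its difference was 4.72 to 5.90 percentage points in tdLNs, 6.99 to 8.94 in spleens and 8.35 to 16.3 in tumors, so the tdLN values lay below those of both other tissues, which was not tested. Trbv1 (40891229 to 40891885) rose by 4.87 ± 1.77, Trbv5 (41062332 to 41062803) by 4.73 ± 1.20 and Trbv2 (41047340 to 41047995) by 2.64 ± 1.36 percentage points. Trbv2 was lower in the αCSF1R tumor, with 1.67% of its 60 long clonotypes, and higher in the other 11 libraries. Of all Trbv5 clonotypes 6.10% were long, and of all Trbv2 clonotypes 6.12%.

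Trbv29 (41271394 to 41271881) had the largest fall, from 7.88% to 14.4% of shorter to 2.87% to 6.5% of long clonotypes, with a mean of −5.75 percentage points ± 2.15 (SD, n = 12, adjusted p = 0.000802 by the exact permutation test). Trbv19 (41178375 to 41179048) differed by −4.14 ± 0.780, Trbv14 (41135145 to 41135616) by −2.41 ± 0.889 and Trbv15 (41141188 to 41141658) by −1.92 ± 0.404 percentage points. Each of these 4 was lower in 12 of 12 libraries. The germline part that a V gene gives to the CDR3 is also part of its length. Trbv20 gives 14 bases and had 0.599% long clonotypes, but Trbv29 and Trbv5 both give 17 bases, with 1.25% and 6.10%. Long CDR3s kept 14.2 germline bases of Trbv29 and 15.9 of Trbv5, and shorter CDR3s 12.9 and 15.1.

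**Figure D4:**
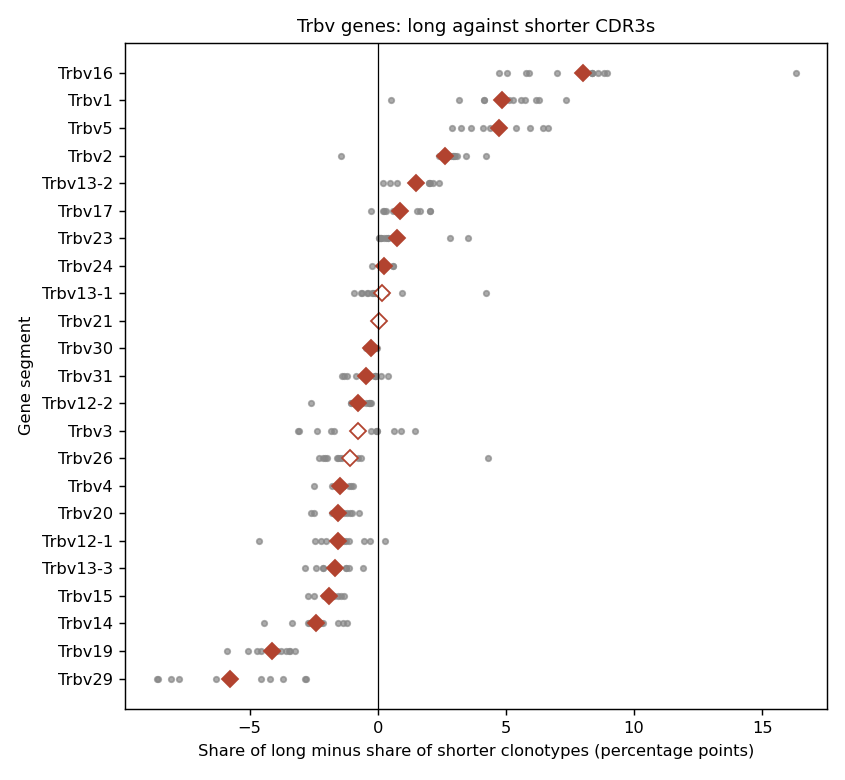
Share of long minus share of shorter clonotypes, in percentage points, for the 23 Trbv genes with at least 10 long clonotypes. Grey points are the 12 libraries and diamonds their mean, filled where the adjusted p was under 0.05. Trbv16 has the highest mean at 8.01 and Trbv29 the lowest at −5.75, and the point of Trbv16 farthest to the right is the αCSF1R tumor at 16.3.

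Residues in the loop, taken after the first 4 and before the last 6 positions, differed as well. Of 20 residues, 7 were more and 6 less frequent in long CDR3s (65% of those tested, 35% higher and 30% lower, exact sign-flip permutation test, Benjamini-Hochberg adjusted). The 266 rows of 26 or more residues gave 10.4% of these loop residues. A run of 60 or more germline V bases stood in all 174 of the longer class and in 33 of the 92 of the other class. Calls of several residues changed when these 266 rows were left out. Cysteine, which can pair with another cysteine in a disulfide bond, was 0.467% of long and 0.0188% of shorter loop residues with them and 0.0518% of long ones without them, still higher in 11 of 12 libraries (adjusted p = 0.00533 by the exact permutation test). This rests on few clonotypes, since 60 of 24324 long ones of up to 25 residues held a loop cysteine, against 635 of 943450 shorter ones. With 17 to 25 residues from C to F the difference was −0.0115 to 0.192 percentage points (mean 0.0292 ± 0.0528, SD, n = 12). Glycine, the smallest and most flexible residue, was 25.5% of long and 25.7% of shorter residues with all rows and did not pass. With 17 to 25 residues from C to F alone, 6 residues were higher and 8 lower. In that set glycine was 28.5% of long residues, higher in 12 of 12 libraries, by 2.01 to 4.05 percentage points (mean 2.84 ± 0.508, SD, n = 12, adjusted p = 0.00122 by the exact permutation test). Alanine (+0.787), asparagine (+0.458), tryptophan (+0.418) and tyrosine (+0.307 percentage points) were higher, and glutamine (−1.27), threonine (−1.25), leucine (−0.463) and phenylalanine (−0.383) were lower. Lysine, which rose by 0.824 percentage points with all rows, was at +0.0139 in that set and did not pass, nor did aspartate (−0.11, against −0.75 with all rows) and arginine (−0.30, against −0.69). Methionine and valine passed in both sets but in opposite directions, from +0.16 to −0.14 and from +0.0924 to −0.179 percentage points. A longer middle leaves a larger part of the counted loop to D and N bases, so the counted positions do not hold the same parts of the chain in both groups.

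Long clonotypes were seldom listed in another library. At the level of V, J and nucleotide sequence, 204 of 24370 distinct long clonotypes were listed in 2 or 3 libraries and 0 in 4 or more, while 7.66% of shorter ones were listed in 2 or more and 2 in all 12. Within a library, 1.19% to 15.0% of long clonotypes were found in another library, against 15.7% to 25.7% of shorter ones. The difference was −10.7 to −18.2 percentage points, below 0 in 12 of 12 libraries (mean −15.5 ± 1.88, SD, n = 12, exact sign-flip permutation test, p = 0.000488). The highest long share was that of the αCSF1R tumor, 9 of 60. Among clonotypes with 1 UMI the mean difference was −13.2 percentage points. At the amino acid level, 9.11% to 19.3% of long CDR3s were found in another library, against 47.5% to 60.9% of shorter ones (mean difference −42.2 percentage points ± 2.56, SD, n = 12, p = 0.000488, exact sign-flip permutation test).

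The long clonotypes that were shared were mostly shared between tissues of 1 treatment. The 12 pairs within a treatment had 4 to 23 long clonotypes in common (median 10.5), the 18 pairs of the same tissue 0 to 8 (median 1) and the 36 other pairs 0 to 6 (median 1). Pairs of the same treatment held 137 of these occurrences, or 58.1% of the total for long and 19.8% for shorter clonotypes, where they are 18.2% of all pairs of libraries. Of the 16 long clonotypes listed in 3 libraries, 10 were listed in the 3 tissues of 1 treatment, 5 of them in αCSF1R mice and 3 in IL-10-Fc mice.

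By tissue pair, 3.54% of the long clonotypes of a tumor were listed in the tdLN of the same treatment and 0.0518% in that of another treatment. For tumors and spleens the values were 3.65% and 0.0718%, and for spleens and tdLNs 0.815% and 0.136%. For each tissue pair, no other of the 24 ways to pair the treatments gave a mean as high, which is p = 0.0417 in a one-sided exact permutation test, and this test can give no lower p. The tumor means rest on the αCSF1R tumor, where 7 of 60 were listed in the tdLN and 7 in the spleen (11.7% each). The other tumors had 0.437% to 1.38% in the tdLN and 0.278% to 1.73% in the spleen. Without αCSF1R the means were 0.827% against 0.0639% in tdLNs and 0.978% against 0.0929% in spleens, and 3 pairs cannot give a p under 0.167.

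**Figure D5:**
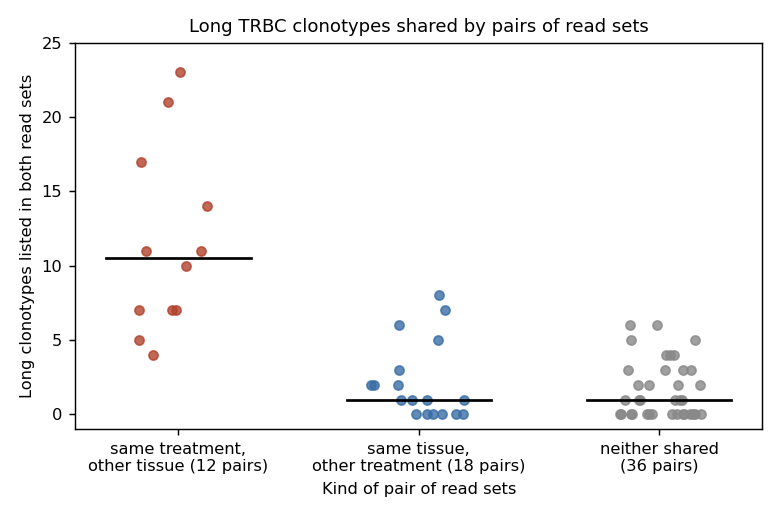
Number of long TRBC clonotypes (same V, J and CDR3 nucleotide sequence) listed in both libraries of a pair, for the 66 pairs of the 12 libraries by kind. Points are pairs, spread sideways for view, and bars are medians. Pairs of the same treatment have 4 to 23, and the others at most 8.

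No long clonotype was listed in more than 3 libraries, and of the 16 listed in 3, the 6 with the most UMIs in all were found in the 3 tissues of 1 treatment. These 3 show how different the middle can be, with 18, 11 and 12 bases.
αCSF1R mice, Trbv17 and Trbj2-1: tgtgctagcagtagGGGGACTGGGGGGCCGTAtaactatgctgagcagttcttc
IL-10-Fc mice, Trbv16 and Trbj2-2: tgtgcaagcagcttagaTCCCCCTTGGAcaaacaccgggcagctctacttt
Control IgG mice, Trbv29 and Trbj1-5: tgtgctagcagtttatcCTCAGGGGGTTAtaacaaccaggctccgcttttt
The Trbv17 and Trbj2-1 clonotype had 7 UMIs in tumor, 2 in spleen and 40 in tdLN. The Trbv16 and Trbj2-2 clonotype had 26, 5 and 3, and the Trbv29 and Trbj1-5 clonotype 30, 1 and 2. A Trbv13-1 and Trbj2-3 clonotype of αCSF1R mice had 15, 3 and 10. The other two are the large Trbv1 and Trbj2-1 and Trbv29 and Trbj2-5 clonotypes above.

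The most widely listed long CDR3 amino acid sequences were of another kind. The first 6 each had 17 residues and were listed in 7 libraries, with 9 to 25 UMIs in all, and each was encoded by 7 to 10 different nucleotide sequences with several V genes but 1 Trbj segment. All used Trbj2, namely Trbj2-2 in 3 of them and Trbj2-1, Trbj2-3 and Trbj2-4 in 1 each. The nucleotide sequence with the most UMIs is shown for the first and the second, since both middles hold a run of G bases as the D segments do.
Trbv16 and Trbj2-4: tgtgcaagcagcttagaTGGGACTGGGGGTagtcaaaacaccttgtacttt
Trbv16 and Trbj2-2: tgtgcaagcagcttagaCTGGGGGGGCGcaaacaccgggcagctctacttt
The first CDR3 had 11 UMIs in the IL-10-Fc tumor, 7 in the BF10 tumor and 1 or 2 in 5 other libraries. The 6 were listed in 0 αCSF1R tumor libraries, and 1 of them in the control IgG tumor, with 6 UMIs.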

How the data were processed

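T cell receptor transcripts of CD8+ T cells were sequenced in 12 libraries (4 treatments, 3 tissues). The authors deposited 1 table per tissue that lists each clonotype (chain, V, J and CDR3) of each library with its UMI counts, supported by at least 3 or at least 7 reads. These deposited counts are not normalized. Per the labels, the build is mm10, and the version of the clonotype caller is not given in the sources used here. UMIs with at least 3 reads were used, 0 columns of values per sample were left unused, and 726 of 968766 TRBC rows with an undetermined residue were left out.

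Each library was 1 group, named by its labels. Shares have exact Clopper-Pearson 95% intervals. Differences between long and shorter CDR3s within a library were tested over 12 libraries by an exact sign-flip permutation test (4096 flips, smallest p 0.000488), tissues by exact relabelling within treatment (1296, smallest p 0.00463), both two-sided, and sharing by treatment over 24 pairings, one-sided. The 10 tests of a single value were Benjamini-Hochberg adjusted together (adjusted p at most 0.0417), and those of Trbj, Trbv (at least 10 long clonotypes) and residues within each family. The tests were tested on simulated data. Bases that match germline V from the start or J from the end (GRCm38) were counted as germline, the rest as the middle, for CDR3s of up to 25 residues.

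Named were the Trbj segments, the 4 Trbv genes with the largest rise and the 4 with the largest fall, each library's largest long clonotype, the 6 clonotypes and the 6 amino acid sequences listed in the most libraries (ties by summed UMIs), and the longest CDR3. The D motifs and the 4 sequences that hold both were chosen after the data were seen, as were the window of 17 to 25 residues, that of 25 residues or fewer, the common Trbj and Trbv use and the omission of the αCSF1R tumor. The members, lists and tests were chosen with earlier results of these data known. Other alternatives were another length limit, UMIs with at least 7 reads, at least 2 UMIs, merging of 1-base neighbours (a 10-fold rule, 2971 clonotypes merged, 69 of them long), 1 V and 1 J named, equal depth, a comparison with 13 to 16 residues, UMIs in place of clonotypes, and each treatment left out. Computations used scipy 1.17.1, pandas 2.3.3 and numpy 2.4.6 under Python 3.11.15, and figures matplotlib 3.10.9.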

Additional observations from a re-analysis of the deposited data

Results flagged for a closer look

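The share of UMIs minus the share of clonotypes held by long CDR3s was −0.596 percentage points in the control IgG tumor, apart from the other 3 tumors at −0.255 to −0.215. Of 21 groups of 4 libraries looked at, this 1 stood apart, and chance sets apart about 1 group in 20. The same difference was −0.327 percentage points on average in tumors, against −0.0762 in spleens and −0.130 in tdLNs (exact permutation test of tissue within treatment, p = 0.0278, adjusted over 5 such tests p = 0.127). It was below 0 in 4 of 4 tumors and 4 of 4 tdLNs and in 3 of 4 spleens, and the adjusted p did not pass 0.05.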

How the results depend on the processing

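Of 152 summary values (means, contrasts and counts) under alternatives, 129 kept their direction, or for counts their size within 1.5 times, and their side of the threshold, and 23 kept the direction only. Such a value can hide a change among its parts, as follows. The difference of tdLNs from the mean of the other tissues in the share of UMIs was −0.57 percentage points with 16 or more residues counted as long (exact permutation test, p = 0.130), against −0.36, and tumors at 9.60% were then below tdLNs at 9.99%. The share of UMIs minus the share of clonotypes was −0.0343 percentage points with 18 or more residues (p = 0.30) and −0.0865 among clonotypes of at least 2 UMIs (p = 0.157, exact permutation tests). The excess of clonotypes with 1 UMI was 2.88 percentage points with UMIs of at least 7 reads (exact permutation test, p = 0.0649), and it cannot be computed among clonotypes of at least 2 UMIs. The causes were not tested. Of single residues with 17 to 25 residues from C to F, the difference turned to 2.84 for glycine, −0.145 for methionine, −0.179 for valine, −0.383 for phenylalanine, −0.0595 for glutamate and −0.0357 percentage points for serine, of which the first 4 passed. With 25 residues or fewer and no demand for C and F these were 2.86, −0.145, −0.186, −0.367, −0.0669 and −0.0322. Without the αCSF1R tumor Trbj1-3 turned to 0.0849 and Trbv13-1 to −0.213, neither of which passed, and 11 Trbj segments, 21 Trbv genes and 15 residues passed.

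With each treatment left out in turn, the difference of tdLNs was −0.458 to −0.390 percentage points of clonotypes and −0.376 to −0.341 of UMIs. The exact permutation p for clonotypes was 0.0833 without control IgG, 0.194 without IL-10-Fc, 0.0556 without αCSF1R and 0.222 without BF10. That for UMIs was 0.0278, 0.0833, 0.0556 and 0.0833. Sharing within a treatment exceeded that between treatments by 0.763 to 4.54 percentage points for tumor and tdLN, 0.562 to 0.775 for spleen and tdLN and 0.885 to 4.75 for tumor and spleen, where 3 treatments cannot give a p under 0.167. The lowest values of all 3 are those without αCSF1R. The other tested values stayed past the threshold when a treatment was left out. Pairing by replicate number was not possible because each group holds 1 library. The tests compared tissues within a treatment, lengths within a library and pairings of treatments instead. Depth limits the tumors most, since the αCSF1R tumor has 60 long clonotypes.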
